A study of Homo sapiens with 11 samples.

Results

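A group of 10 immediate early and NR4A genes was followed across HEK293T cells, a human embryonic kidney line, in which NAE1, UBE2M or URM1 had been knocked down. They were chosen by name as NR4A1, NR4A2, NR4A3, FOS, FOSB, JUN, JUNB, EGR1, IER2 and IER3, which are 10 of the 58735 genes in the deposited count table, and all 10 passed the filter on low counts that left 18368 genes for testing. Messenger RNA was sequenced in 3 libraries of control cells (n = 3) and in libraries of cells collected 48 h after transfection with siRNA against NAE1 at 50 nM (siNAE1, n = 3), UBE2M at 70 nM (siUBE2M, n = 3) or URM1 at 60 nM (siURM1, n = 2). The labels assign a control siRNA to the control libraries, but the study also lists them as HKWT, so it is uncertain whether these cells had been transfected. NAE1 is the regulatory subunit of the enzyme that activates the ubiquitin-like protein NEDD8, UBE2M passes NEDD8 on to cullin proteins, and URM1 is a ubiquitin-like modifier that also serves as a sulfur carrier in the thiolation of transfer RNA.

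Immediate early genes are transcribed within minutes of a growth factor, stress or calcium signal, because the factors that switch them on, among them SRF with its ETS partners and CREB, are already present in the cell. Their FOS and JUN proteins pair up as the transcription factor AP-1, EGR1 binds GC-rich promoters, and the NR4A proteins are orphan nuclear receptors whose activity is set largely by how much of them is made. Their transcripts are short-lived, and JUN protein is itself removed by cullin-based ubiquitin ligases, which are activated by NEDD8.

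In outline, FOS, JUNB and EGR1 rose strongly in siNAE1 and siURM1 cells and far less or not detectably in siUBE2M cells, JUN fell in every knockdown, and NR4A2 rose in every knockdown to a similar level. FOS was 3.97 times and 4.14 times its control level in siNAE1 and siURM1 cells, with a value of 1.28 times in siUBE2M cells that did not pass the test. JUN fell to 45.5%, 48.5% and 65.5% of its control level in siNAE1, siUBE2M and siURM1 cells. Levels below are given as CPM, the counts of a gene scaled to library totals, after TMM scaling of each library, and a gene was called at a Benjamini-Hochberg adjusted p under 0.05 in the quasi-likelihood test of edgeR, in a single fit of the 4 groups. Called genes whose log2 fold change was also at least 1 in size are termed DEGs. Total counts ranged from 11733163 to 16321391 per library, and edgeR put the biological coefficient of variation at 7.06%. The labels number the libraries as biological replicates but do not say whether they came from separate cultures, so p-values measure the spread between these libraries, which may be technical, and the siURM1 group of 2 libraries borrows most of its spread from the others. In RNA from whole cultures, a change in how many cells express a gene and a change in its RNA per cell cannot be told apart.

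The labels were checked first against the targeted genes and against markers of the cell line. NAE1 lay between 98.9 and 109 CPM in the control libraries and between 35.2 and 42.6 CPM in siNAE1 libraries, UBE2M went from 263 to 268 CPM down to 15.6 to 19.1 CPM in siUBE2M libraries, and URM1 from 51.0 to 55.4 CPM down to 15.2 and 15.5 CPM in siURM1 libraries. Each target was thus lowest in the libraries labelled for it, with no overlap. All 7 markers of HEK293 cells (VIM, PAX2, NEFM, NEFL, KRT8, KRT18 and CDH2) were detected in every group, with a summed level of 452 to 479 CPM in control, 634 to 685 CPM in siNAE1, 589 to 690 CPM in siUBE2M and 724 to 784 CPM in siURM1 libraries, and VIM the most abundant. Of the 7, 4 were called higher and 0 lower in siNAE1 cells, 2 and 2 in siUBE2M cells, and 6 and 0 in siURM1 cells (median log2 fold changes 0.42, 0.04 and 0.57). That is 57.1%, 57.1% and 85.7% called, beside 54.7%, 45.3% and 41.6% of all tested genes, so the siNAE1 share was near that of all genes. The higher sum in siUBE2M cells was mostly VIM (mean 174 CPM in control and 336 CPM in siUBE2M cells), while PAX2 (10.0 to 5.35 CPM) and KRT8 (18.9 to 14.6 CPM) were lower there. The part of these markers in the results was not tested. Hepatocyte markers summed to at most 0.983 CPM in any library. The 5 fibroblast markers, led by COL1A1, summed to 21.0 to 26.1 CPM in control, 24.9 to 26.7 CPM in siNAE1, 31.3 to 37.3 CPM in siUBE2M, and 26.7 and 29.9 CPM in siURM1 libraries, with 1 at 0 in siUBE2M (COL1A2) and 2 in siURM1 cells (COL1A2 and DCN). Of the 3 that could be tested, 2 were higher DEGs in each knockdown (5.30%, 3.22% and 2.89% of all tested genes were higher DEGs), namely COL3A1 (mean 2.07 CPM in control, 6.44 in siNAE1, 6.03 in siUBE2M and 4.71 in siURM1 cells) and LUM (0.189 to 0.423 CPM in control, 0.628 to 1.15 CPM in siNAE1, 0.884 to 1.77 CPM in siUBE2M, and 0.762 and 1.44 CPM in siURM1 libraries). COL1A1 itself had means of 21.0 CPM in control, 18.2 in siNAE1, 27.4 in siUBE2M and 22.5 CPM in siURM1 cells and was called, as higher, in siUBE2M cells but not in the others. The monocyte marker CD14 was also a higher DEG in siNAE1 and siUBE2M cells (mean 0.474 CPM in control, 2.44 in siNAE1, 2.49 in siUBE2M and 0.790 in siURM1 cells). The part of the fibroblast markers and CD14 in the results was not tested either.

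Compared with control, 7 of the 10 genes were called higher and 1 lower in siNAE1 cells, where 27.6% and 27.1% of all tested genes were called higher and lower. Of these, 6 higher and 1 lower were DEGs, beside 5.30% and 8.61% of all tested genes. In siUBE2M cells 5 were called higher and 1 lower (22.7% and 22.6% of all tested genes), but only NR4A2 among the higher and JUN as the lower gene were DEGs (3.22% and 3.89% of all tested genes). In siURM1 cells 7 were called higher and 1 lower (20.8% of all tested genes in each direction). Of the 7, 6 were DEGs (2.89% of all tested genes were higher DEGs), whereas JUN, the lower gene, did not reach the fold threshold that 4.73% of all tested genes passed downwards. The median log2 fold change of the 10 genes was 1.21 in siNAE1, 0.29 in siUBE2M and 1.31 in siURM1 cells, against medians of -0.00, 0.01 and -0.02 over all tested genes. These 3 comparisons share the same control libraries, so a control library that happened to be low would raise all of them at once. In siNAE1, siUBE2M and siURM1 cells, 7, 4 and 8 of the 10 genes had every library above every control library. Of all tested genes, 29.8%, 26.8% and 29.8% did. Only JUN had every library below, as did 29.7%, 26.9% and 31.0% of all tested genes. Between knockdowns, 25.3% to 28.5% of all tested genes were separated in each direction. Such separation of libraries was therefore common.

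**Figure D1:**
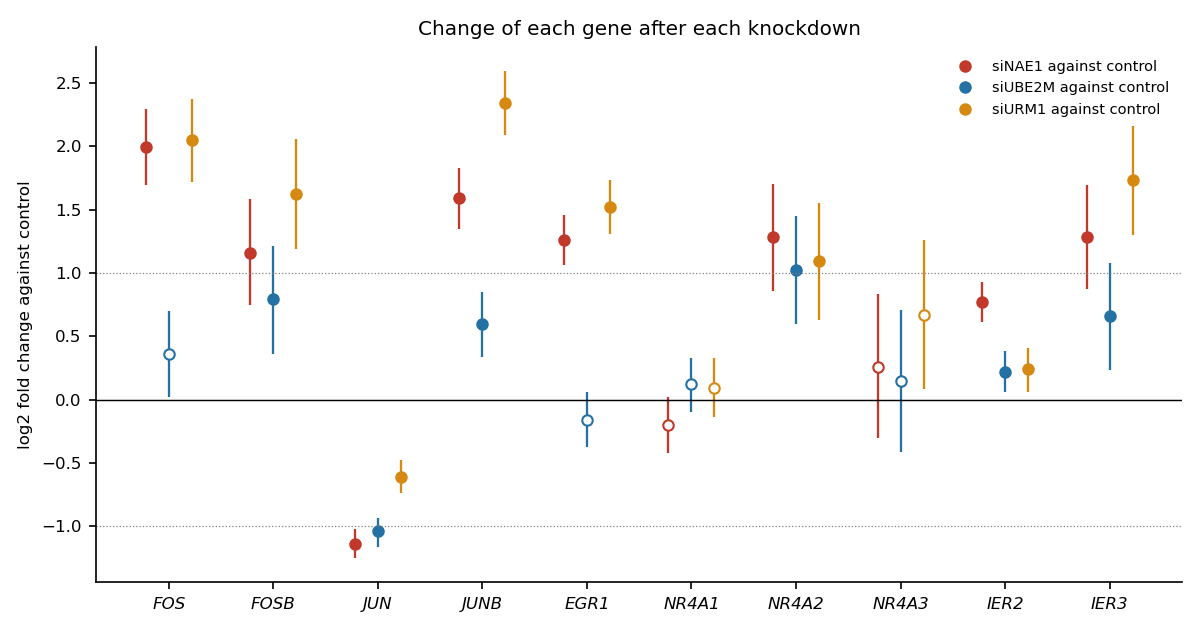
Log2 fold change of each gene against control (vertical axis) in siNAE1 (red), siUBE2M (blue) and siURM1 cells (orange), with bars for the 95% confidence interval from the edgeR fit; filled points passed the test, open points did not, and dotted lines mark the fold threshold of 1. JUN is the gene below 0 in all knockdowns, and the blue points of FOS (0.36) and EGR1 (-0.16) are open while their red and orange points lie between 1.26 and 2.05.

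The bases before the start sites of FOS, FOSB, JUNB and EGR1 are shown. These genes were higher DEGs in both siNAE1 and siURM1 cells, as were NR4A2 and IER3. Promoters of 8 of the 10 genes were in the RefSeq table for GRCh38.p14, and NR4A2 and IER3 were not. In the 250 bases before each start, both strands were searched for the CREB site TGACGTCA and its core TGACG, which lies inside it, for the AP-1 sites TGAGTCA and TGACTCA, for the JUN promoter element TGACATCA, for the SRF site known as the CArG box, for the TATA box TATAAA, for the GC box GGGCGG, for CCAAT, for the EGR sites GCGTGGGCG and GCGGGGGCG, of which the second can share bases with the GC box, for the NR4A site AAAGGTCA, and for the ETS site CCGGAAGT. Each run below ends at or just before the start, 5′ to 3′ on the strand of the gene, with matches in capitals.
FOS (chr14:75278676-75278825, + strand): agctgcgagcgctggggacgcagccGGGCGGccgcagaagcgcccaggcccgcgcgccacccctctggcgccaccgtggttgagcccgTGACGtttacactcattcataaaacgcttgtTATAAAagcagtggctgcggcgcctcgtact
FOSB (chr19:45467845-45467994, + strand): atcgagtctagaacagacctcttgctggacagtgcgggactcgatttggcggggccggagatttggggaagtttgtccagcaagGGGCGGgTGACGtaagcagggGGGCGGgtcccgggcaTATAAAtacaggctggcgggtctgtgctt
JUNB (chr19:12791336-12791485, + strand): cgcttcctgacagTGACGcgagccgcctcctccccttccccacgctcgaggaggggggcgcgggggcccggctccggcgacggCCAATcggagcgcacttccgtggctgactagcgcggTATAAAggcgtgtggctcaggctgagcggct
EGR1 (chr5:138465329-138465478, + strand): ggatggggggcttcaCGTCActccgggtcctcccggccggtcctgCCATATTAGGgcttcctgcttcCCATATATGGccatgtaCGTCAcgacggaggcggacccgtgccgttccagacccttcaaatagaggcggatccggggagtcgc
The core TGACG was found in 7 of the 8 promoters and in 21.7% of the 27305 promoters in the table. It was thus not limited to the genes shown. JUN, which fell in every knockdown, and IER2 had it too, and NR4A3, which was not called against control, had 4 matches. The TATA box was found in 3 of the 8, those of FOS, FOSB and JUNB, beside 11.1% of all promoters. EGR1 was the only one of the 8 with a CArG box, of which it had 2 matches, and 1.14% of all promoters held one. JUN was the only one with TGACATCA, present in 2.45% of all promoters. The GC box was in 4 of the 8 and in 42.3% of all promoters, and CCAAT in 2 of the 8 and in 33.0%. The complete CREB site, the AP-1 sites, and the EGR, NR4A and ETS sites, held by 1.77%, 4.16%, 5.30%, 1.05% and 3.64% of all promoters, were not among the matches. Such matches describe the letters in these windows and do not show that a factor binds there. Bases farther than 250 from the start were not searched, and variants of the listed letters were not counted. A missing match, such as that of a CArG box or an ETS site, therefore does not show that a gene lacks such a site. In GENCODE v44 the windows of FOS and EGR1 lie in no other gene, that of FOSB lies in an intron of ERCC1 and that of JUNB in an intron of HOOK2, both genes being on the opposite strand. The deposited table uses an annotation in which FOS begins at base 75278774, inside the window shown, and in which JUN reaches to base 58784327, so that the whole window searched for JUN lies inside the deposited gene.

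FOS (ENSG00000170345, chromosome 14, 75278774 to 75282230) encodes the best-known partner of JUN in AP-1. It was at 5.49, 4.67 and 3.47 CPM in the control libraries, 19.3, 16.4 and 18.7 CPM in siNAE1, 6.33, 5.18 and 6.04 CPM in siUBE2M, and 18.3 and 19.5 CPM in siURM1 libraries. Every siNAE1 and siURM1 library was far above every control library, whereas the siUBE2M libraries ran into the control range, with siUBE2M replicate 2 below control replicate 1. The log2 fold change was 1.99 in siNAE1 (SE 0.15, adjusted p = 7.2e-13) and 2.05 in siURM1 cells (SE 0.16, adjusted p = 4.4e-12; quasi-likelihood test of edgeR, Benjamini-Hochberg adjustment). In siUBE2M cells it was 0.36, with a 95% confidence interval of 0.02 to 0.70 (adjusted p = 0.081, edgeR with Benjamini-Hochberg adjustment). This value rested on single libraries, as it was called without control replicate 1 (0.52, adjusted p = 0.024) or siUBE2M replicate 2 (0.45, adjusted p = 0.049), and its adjusted p ranged from 0.024 to 0.36 over all alternatives (edgeR, DESeq2 or limma with Benjamini-Hochberg adjustment). The levels were ordered control, siUBE2M, siNAE1 and siURM1, and the only neighbours that differed beyond their spread were siUBE2M and siNAE1.

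FOSB (ENSG00000125740, chromosome 19, 45467995 to 45475179), encodes a second FOS protein, of which a truncated form persists in stimulated neurons. It gave 2.54, 2.89 and 2.59 CPM in control, 5.15, 7.27 and 5.47 CPM in siNAE1, 4.05, 5.05 and 4.71 CPM in siUBE2M, and 8.99 and 7.48 CPM in siURM1 libraries. No knockdown library overlapped the control range, and the groups stood in the order control, siUBE2M, siNAE1 and siURM1 without overlap. Its log2 fold changes were 1.16 (SE 0.20, adjusted p = 1.3e-05), 0.79 (SE 0.21, adjusted p = 0.0024) and 1.62 (SE 0.21, adjusted p = 2.0e-07) in siNAE1, siUBE2M and siURM1 cells (edgeR with Benjamini-Hochberg adjustment). The neighbours siUBE2M and siNAE1, and siNAE1 and siURM1, did not pass the test of their difference (adjusted p = 0.11 and 0.069, edgeR with Benjamini-Hochberg adjustment). The latter was called without siNAE1 replicate 2 (-0.64, adjusted p = 0.025, range over all alternatives 0.025 to 0.39, Benjamini-Hochberg adjustment in edgeR, DESeq2 or limma). FOSB lies wholly within ERCC1, a DNA repair gene on the opposite strand. The RNA libraries kept strand, but the strand setting of the counting is not given in the sources used here, so reads of both genes may be mixed. ERCC1 was at 51.8 to 53.2 CPM in control, 27.0 to 32.7 CPM in siNAE1, 34.0 to 43.7 CPM in siUBE2M, and 48.9 and 53.3 CPM in siURM1 libraries, and its part in the FOSB values was not tested.

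JUN (ENSG00000177606, chromosome 1, 58780788 to 58784327), the most abundant of the 10 genes, encodes the AP-1 subunit whose protein is turned over by cullin-based ligases. It stood at 671, 643 and 637 CPM in control, 290, 302 and 296 CPM in siNAE1, 302, 312 and 332 CPM in siUBE2M, and 444 and 408 CPM in siURM1 libraries. All knockdown libraries were well below all control libraries, and those of siURM1 lay in between. The log2 fold changes were -1.14 in siNAE1 (SE 0.06, adjusted p = 6.1e-17), -1.04 in siUBE2M (SE 0.06, adjusted p = 1.3e-15) and -0.61 in siURM1 cells (SE 0.06, adjusted p = 3.4e-09; edgeR with Benjamini-Hochberg adjustment). With 3295 to 11107 counts per library this was the most precisely measured of the 10 genes. The siNAE1 and siUBE2M levels did not differ beyond their spread (-0.09, 95% confidence interval -0.21 to 0.03), and both were below siURM1.

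JUNB (ENSG00000171223, chromosome 19, 12791496 to 12793315), a JUN protein with weaker activating and partly opposing function, moved the other way. Its level was 8.76, 11.4 and 8.33 CPM in control, 27.3, 25.9 and 32.7 CPM in siNAE1, 13.5, 14.8 and 14.8 CPM in siUBE2M, and 50.0 and 46.4 CPM in siURM1 libraries. The 4 groups were separate from each other, from control upwards through siUBE2M and siNAE1 to siURM1, and each step passed the test. Against control the log2 fold change was 1.59 in siNAE1 (SE 0.12, adjusted p = 7.1e-13), 0.60 in siUBE2M (SE 0.13, adjusted p = 2.1e-04) and 2.34 in siURM1 cells (SE 0.12, adjusted p = 5.4e-16; edgeR with Benjamini-Hochberg adjustment), the last being the highest of the 10 genes in any knockdown. JUNB lies within HOOK2 on the opposite strand, which was at 35.3 to 39.6 CPM in control, 28.5 to 35.3 CPM in siNAE1, 33.1 to 39.0 CPM in siUBE2M, and 34.9 and 36.9 CPM in siURM1 libraries. Its part in the JUNB values was not tested either.

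**Figure D2:**
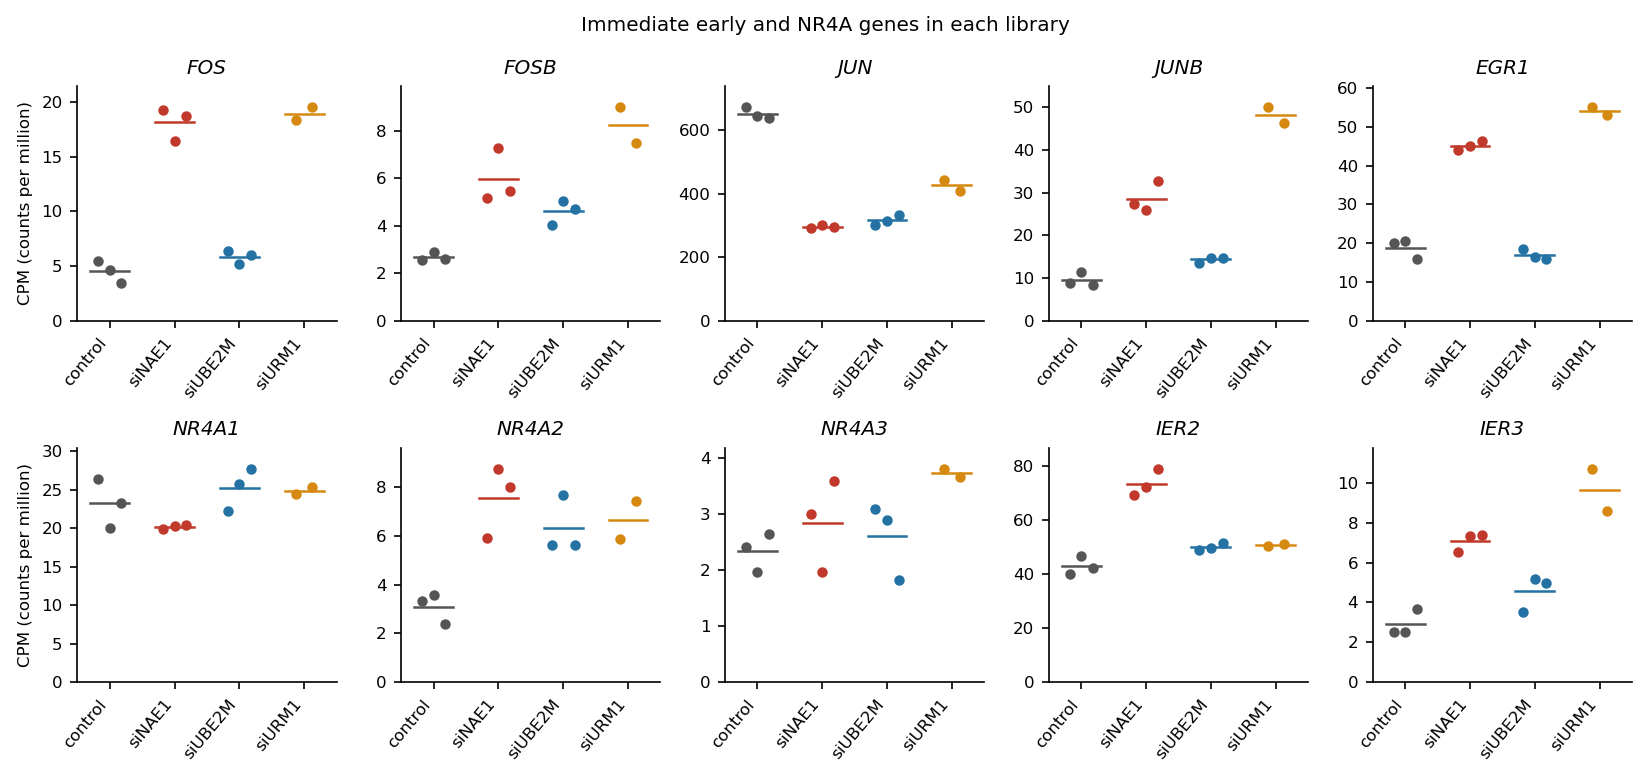
CPM of each of the 10 genes (vertical axis, starting at 0, scaled separately for each gene) in every library of the 4 groups (horizontal axis), with a line at the group mean. FOS and EGR1 are high in siNAE1 and siURM1 and near control in siUBE2M, JUN is highest in control (637 to 671 CPM), and NR4A1 stays between 19.9 and 27.7 CPM.

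For comparison between genes, the FPKM values computed by the authors were used, since they account for gene length. The mean control level of JUN, 182 ± 4.28 FPKM (SD, n = 3), was above 99.3% of tested genes, followed by IER2 (13.9 ± 1.18), EGR1 (5.94 ± 0.832), JUNB (5.17 ± 0.920), NR4A1 (3.16 ± 0.419), IER3 (2.12 ± 0.479), FOS (1.39 ± 0.307), NR4A2 (0.774 ± 0.155), FOSB (0.477 ± 0.0363) and NR4A3 (0.368 ± 0.0536 FPKM, all SD, n = 3). Apart from JUN and IER2, these genes were thus at moderate or low levels in control cells. The FPKM of JUN divided by that of JUNB was 39.4, 29.1 and 39.3 in control, 5.45, 5.99 and 4.65 in siNAE1, 11.5, 10.9 and 11.5 in siUBE2M, and 4.56 and 4.52 in siURM1 libraries. JUN transcripts therefore outnumbered those of JUNB in every library, but by a smaller factor in every knockdown library than in any control library. Of the summed FPKM of the 7 FOS and JUN family genes (JUN, JUNB, JUND, FOS, FOSB, FOSL1 and FOSL2), JUN made up 75.5% ± 0.545 in control (SD, n = 3), 52.5% ± 2.83 in siNAE1 (SD, n = 3), 61.6% ± 0.685 in siUBE2M (SD, n = 3) and 64.2% ± 0.387 in siURM1 cells (SD, n = 2). The 4 FOS family genes together made up 1.59% ± 0.120, 6.89% ± 0.174, 3.44% ± 0.330 and 5.48% ± 0.237 in the same order. Their own summed level was 3.84 ± 0.396, 10.8 ± 0.712, 4.91 ± 0.392 and 10.2 ± 0.0908 FPKM in that order (SD, with n as for the shares). The sum of all 7 genes fell, from 234 to 248 FPKM in control to 152 to 167 in siNAE1, 138 to 149 in siUBE2M, and 179 and 193 FPKM in siURM1 libraries, because JUN carries most of it. The share of JUND was highest in siNAE1 cells at 30.8% ± 2.02 (SD, n = 3) and lowest in siURM1 cells at 16.2% ± 0.147 (SD, n = 2). In siUBE2M cells it was 29.5% ± 0.535 (SD, n = 3), with libraries that overlapped those of siNAE1 cells. The level of JUND itself was not called different from control in siNAE1 cells (log2 fold change -0.04). It was called lower in siUBE2M (-0.24) and siURM1 cells (-0.73). These shares are descriptions of transcript levels and were not tested.

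**Figure D3:**
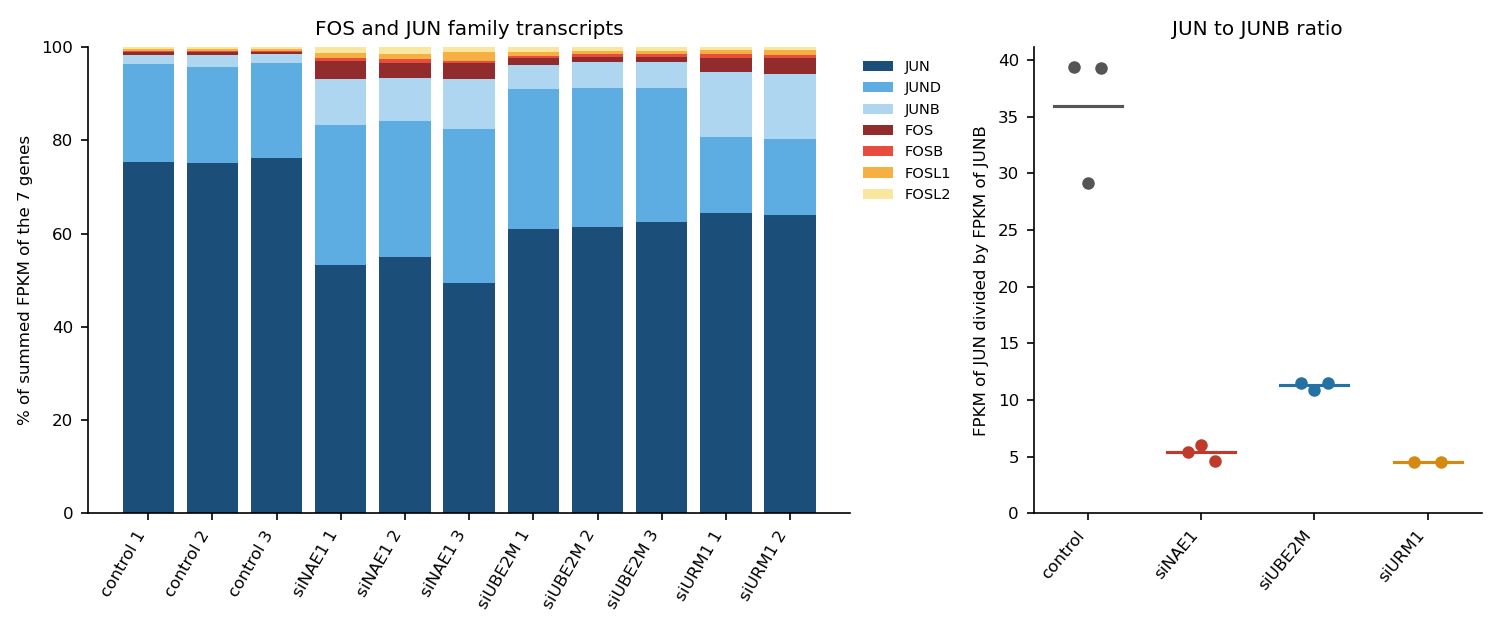
Left, share of each of 7 FOS and JUN family genes in their summed FPKM (vertical axis, %) for each library. Right, the FPKM of JUN divided by that of JUNB in each library, with a line at the group mean. The ratio is 29.1 to 39.4 in control libraries and 4.52 to 11.5 in knockdown libraries.

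EGR1 (ENSG00000120738, chromosome 5, 138465490 to 138469315) encodes a zinc finger factor and is a standard readout of SRF and ERK signalling. Control libraries held 20.1, 20.5 and 15.8 CPM, siNAE1 libraries 43.9, 45.0 and 46.3 CPM, siUBE2M libraries 18.4, 16.5 and 15.9 CPM, and siURM1 libraries 55.0 and 53.1 CPM. The siNAE1 and siURM1 libraries were clear of the control range, and the siUBE2M libraries lay inside it. The log2 fold change was 1.26 in siNAE1 (SE 0.10, adjusted p = 1.6e-12) and 1.52 in siURM1 cells (SE 0.10, adjusted p = 2.9e-13; edgeR with Benjamini-Hochberg adjustment), but -0.16 in siUBE2M cells with a 95% confidence interval of -0.37 to 0.06 (adjusted p = 0.23, edgeR with Benjamini-Hochberg adjustment). The siUBE2M interval thus ends far below the values of the other knockdowns.

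The NR4A receptors did not move as a family. NR4A2 (Nurr1; ENSG00000153234, chromosome 2, 156324432 to 156342348), which is needed for dopamine neurons and is also induced by stress signals, had 3.32, 3.57 and 2.40 CPM in control, 5.91, 8.74 and 7.98 CPM in siNAE1, 5.60, 7.67 and 5.62 CPM in siUBE2M, and 5.87 and 7.41 CPM in siURM1 libraries. Every knockdown library was above every control library, and the knockdowns overlapped each other. The log2 fold changes were 1.28 (SE 0.21, adjusted p = 3.2e-06), 1.02 (SE 0.21, adjusted p = 1.3e-04) and 1.09 (SE 0.23, adjusted p = 1.9e-04) in siNAE1, siUBE2M and siURM1 cells (edgeR with Benjamini-Hochberg adjustment). In siUBE2M cells it stayed called but fell under the fold threshold of a DEG without control replicate 3 (0.88) or siUBE2M replicate 2 (0.87). No pair of knockdowns differed in NR4A2 beyond the spread, with adjusted p values of 0.29, 0.52 and 0.84 (edgeR with Benjamini-Hochberg adjustment).

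NR4A1 (Nur77; ENSG00000123358, chromosome 12, 52022832 to 52059507), the most abundant of the 3 receptors and the one usually induced first, had 26.4, 20.0 and 23.3 CPM in control, 19.9, 20.3 and 20.4 CPM in siNAE1, 22.2, 25.7 and 27.7 CPM in siUBE2M, and 24.4 and 25.3 CPM in siURM1 libraries. All knockdowns reached into the control range. Log2 fold changes of -0.20 in siNAE1, 0.12 in siUBE2M and 0.09 in siURM1 cells were not called (adjusted p = 0.11, 0.39 and 0.56, edgeR with Benjamini-Hochberg adjustment), with 95% confidence intervals that lay within -0.42 and 0.33. The siNAE1 value was called without control replicate 2 (-0.30, adjusted p = 0.031, range over all alternatives 0.031 to 0.5, Benjamini-Hochberg adjustment in edgeR, DESeq2 or limma). NR4A3 (NOR1; ENSG00000119508, chromosome 9, 99821855 to 99866891), the least abundant, had 2.42, 1.97 and 2.65 CPM in control, 3.00, 1.96 and 3.59 CPM in siNAE1, 3.09, 2.89 and 1.83 CPM in siUBE2M, and 3.81 and 3.67 CPM in siURM1 libraries. Of the knockdowns, siURM1 alone had all its libraries above all control libraries, as was so for 29.8% of all tested genes. The log2 fold changes of 0.26, 0.15 and 0.67 were not called, the last with an adjusted p of 0.063 and a 95% confidence interval of 0.08 to 1.26 (edgeR with Benjamini-Hochberg adjustment). NR4A3 had 26 to 61 counts per library. In a fit of siURM1 and control libraries alone the siURM1 value was 0.68 and passed the test (adjusted p = 0.04, range over all alternatives 0.04 to 0.23, Benjamini-Hochberg adjustment in edgeR, DESeq2 or limma).

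IER2 and IER3 are small immediate early proteins, IER2 a nuclear protein induced by growth factors and IER3 a stress-induced regulator of cell survival and ERK signalling. IER2 (ENSG00000160888, chromosome 19, 13150415 to 13154908) had 40.0, 46.7 and 42.0 CPM in control, 69.1, 72.0 and 78.8 CPM in siNAE1, 49.0, 49.6 and 51.4 CPM in siUBE2M, and 50.2 and 50.9 CPM in siURM1 libraries. The siNAE1 libraries stood apart from all others, and those of siUBE2M and siURM1 lay just above the control range. The log2 fold change in siNAE1 cells was 0.77 (SE 0.08, adjusted p = 5.6e-10), and the small values of 0.22 in siUBE2M (SE 0.08, adjusted p = 0.023) and 0.24 in siURM1 cells (SE 0.09, adjusted p = 0.03; edgeR with Benjamini-Hochberg adjustment) depended on single libraries. The siUBE2M call was lost without control replicate 1 (0.18, adjusted p = 0.11), control replicate 3 (0.21, adjusted p = 0.059) or siUBE2M replicate 3 (0.20, adjusted p = 0.062, edgeR with Benjamini-Hochberg adjustment), with a range of 0.0082 to 0.11 over all alternatives. The siURM1 call was lost without control replicate 1 or 3 (0.20 and 0.23, adjusted p = 0.11 and 0.062), without either siURM1 library (0.25 and 0.23, adjusted p = 0.097 and 0.13), and with no filter on low counts (0.24, adjusted p = 0.052, edgeR with Benjamini-Hochberg adjustment), with a range of 0.01 to 0.13 over all alternatives.

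IER3 (ENSG00000137331, chromosome 6, 30743199 to 30744554) had 2.54, 2.52 and 3.66 CPM in control, 6.53, 7.34 and 7.36 CPM in siNAE1, 3.53, 5.18 and 4.99 CPM in siUBE2M, and 10.7 and 8.59 CPM in siURM1 libraries. The siNAE1 and siURM1 libraries were above all controls and above all siUBE2M libraries, and siUBE2M replicate 1 fell below control replicate 3. The log2 fold changes were 1.28 (SE 0.20, adjusted p = 2.2e-06), 0.66 (SE 0.21, adjusted p = 0.01) and 1.73 (SE 0.21, adjusted p = 5.0e-08) in siNAE1, siUBE2M and siURM1 cells (edgeR with Benjamini-Hochberg adjustment). Without siUBE2M replicate 2 the siUBE2M value was 0.57 and no longer called (adjusted p = 0.054, edgeR with Benjamini-Hochberg adjustment; range over all alternatives 0.0033 to 0.054). The antisense genes that overlap NR4A1, IER2 and IER3 had at most 5 counts in any library.

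Whether the knockdowns differed from each other was tested directly, without the control libraries as reference. Between siNAE1 and siUBE2M cells, 6 of the 10 genes were called, where 44.3% of all tested genes were. FOS (1.63, SE 0.15), EGR1 (1.41, SE 0.10), JUNB (0.99, SE 0.11), IER3 (0.63, SE 0.19) and IER2 (0.55, SE 0.08) were higher in siNAE1 on the log2 scale and NR4A1 was lower (-0.32, SE 0.11). Both targets act in the NEDD8 pathway, but the RNA left was 38.9% of control for NAE1 in siNAE1 cells and 6.34% for UBE2M in siUBE2M cells. The adjusted p values ranged from 5.4e-13 for EGR1 to 0.017 for NR4A1 (edgeR with Benjamini-Hochberg adjustment). The call of NR4A1 was lost without siUBE2M replicate 3 (-0.25, adjusted p = 0.091, edgeR with Benjamini-Hochberg adjustment) and with limma on log2(FPKM + 1) or log2(FPKM + 0.1) (-0.24 and -0.31, adjusted p = 0.07 and 0.066, Benjamini-Hochberg adjustment), and that of IER3 without siUBE2M replicate 1 (0.47, adjusted p = 0.071, edgeR with Benjamini-Hochberg adjustment). Over all alternatives these adjusted p values ranged from 0.006 to 0.091 for NR4A1 and from 0.0072 to 0.071 for IER3 (edgeR, DESeq2 or limma with Benjamini-Hochberg adjustment). JUN, FOSB, NR4A2 and NR4A3 did not pass this test.

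Between siUBE2M and siURM1 cells 6 genes were called, beside 35.0% of all tested genes, and each was lower in siUBE2M. They were JUNB (-1.75, SE 0.12), FOS (-1.69, SE 0.16), EGR1 (-1.68, SE 0.11), IER3 (-1.07, SE 0.20), FOSB (-0.84, SE 0.20) and JUN (-0.43, SE 0.06), with adjusted p values of 0.0015 or less (edgeR with Benjamini-Hochberg adjustment). These 6 calls held in all alternatives tried. Between siNAE1 and siURM1 cells 5 genes were called, beside 38.6% of all tested genes, a share not far from that of the 10 genes. IER2 was higher in siNAE1 (0.53, SE 0.09), and JUNB (-0.76, SE 0.11), JUN (-0.53, SE 0.06), NR4A1 (-0.30, SE 0.12) and EGR1 (-0.26, SE 0.10) were lower. The calls of NR4A1 (adjusted p = 0.049) and EGR1 (adjusted p = 0.036, edgeR with Benjamini-Hochberg adjustment) were each lost in 9 of 13 alternatives. Both were lost with no filter on low counts, with DESeq2, with limma at either pseudocount, without siNAE1 replicate 1 or 2, and without either siURM1 library, and besides these NR4A1 was lost without siNAE1 replicate 3 and EGR1 with the replicate block. Without siURM1 replicate 1 or 2, NR4A1 had adjusted p values of 0.12 and 0.18 and EGR1 of 0.18 and 0.087, and over all alternatives they ranged from 0.036 to 0.18 and from 0.017 to 0.18 (edgeR, DESeq2 or limma with Benjamini-Hochberg adjustment). IER3 was not called, but was in a fit of these 2 groups alone (-0.46, adjusted p = 0.041) and with the replicate block (-0.53, adjusted p = 0.039, edgeR with Benjamini-Hochberg adjustment), with a range of 0.039 to 0.45 over all alternatives. FOS did not differ beyond its error between siNAE1 and siURM1 cells, with a difference of -0.06 and a 95% confidence interval of -0.35 to 0.23. The knockdowns also differed in siRNA dose and in how much of the target RNA was left, and the study's supplement lists a single siRNA for each target. Target, dose, depth of knockdown and other effects of each siRNA therefore cannot be told apart.

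Genes with the most similar pattern were sought for the gene of the 10 that changed most in each knockdown, as the 3 genes whose log2 CPM, centred on the control mean, differed least from it over the 11 libraries out of 11991 genes averaging 5 CPM or more. For FOS these were HMOX1, which degrades heme, the secreted protease ADAMTS1, and DUSP5, a phosphatase that inactivates ERK in the nucleus, with root mean square differences of 0.207, 0.243 and 0.282. In siNAE1, then siUBE2M, then siURM1 cells their log2 fold changes were 2.10, 0.48 and 1.85 for HMOX1, 2.19, 0.42 and 2.32 for ADAMTS1, and 2.50, 0.51 and 2.09 for DUSP5. For JUN, the gene that changed most in siUBE2M cells, they were ZC3H8, CLUAP1 and FHIT, with differences of 0.0870, 0.107 and 0.118, and their log2 fold changes in the same order were -1.11, -0.95 and -0.63 for ZC3H8, a zinc finger protein, -1.06, -0.95 and -0.54 for CLUAP1, a component of cilia, and -1.17, -1.06 and -0.73 for FHIT, a nucleotide hydrolase. For JUNB, which led in siURM1 cells, they were FOS, MMP15 and ADAMTS1, with larger differences of 0.329, 0.360 and 0.366, and MMP15, a membrane-bound protease, had log2 fold changes of 1.17, 1.00 and 2.20.

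The other partners of FOS and JUN in AP-1 and related dimers were a list of 13 genes, of which 12 could be tested. In siNAE1 cells 6 were called higher and 4 lower, in siUBE2M cells 3 and 4, and in siURM1 cells 4 and 5, with medians of 0.10, -0.07 and -0.14. The called genes were 83.3%, 58.3% and 75.0% of those tested, beside 54.7%, 45.3% and 41.6% of all tested genes. Like JUN, ATF3 and JDP2, which encode partners of JUN that can repress transcription, were lower in every knockdown. The log2 fold change of JDP2 was -1.95 in siNAE1, -0.66 in siUBE2M and -0.90 in siURM1 cells, and that of ATF3 was -1.94, -1.70 and -1.91. MAFF, a small MAF protein, rose by a similar amount in each knockdown (1.01, 1.04 and 1.00). Its relative MAFK was called higher in siNAE1 (1.02) and siUBE2M (0.30), and ATF2, a substrate of stress kinases, was called lower in siNAE1 (-0.58) and higher in siUBE2M and siURM1 cells (0.28 in both).

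Of 32 other immediate early genes, 30 could be tested. In siNAE1 cells 19 were called higher and 9 lower with a median of 0.64, in siUBE2M cells 9 and 8 with a median of 0.00, and in siURM1 cells 20 and 1 with a median of 0.52. Together these were 93.3%, 56.7% and 70.0% of the list's tested genes, beside 54.7%, 45.3% and 41.6% of all tested genes. So the low position of siUBE2M seen for FOS and EGR1 was also seen in the median of this list. Among the genes averaging 5 CPM or more, to which named genes were limited in these lists, the largest changes were those of ARC, a neuronal early gene, in siNAE1 cells (3.10, against -0.04 in siUBE2M and 0.67 in siURM1), and of GEM, a small GTPase (1.77, 0.49 and 0.82). ID3, an inhibitor of helix-loop-helix factors, rose in all knockdowns (1.31, 1.39 and 1.18), as did RGS2, a regulator of G protein signalling (1.04, 0.71 and 0.42). RHOB (0.67, -0.53 and 0.98) and MYC (0.50, -0.72 and 0.63) were called higher in siNAE1 and siURM1 cells and lower in siUBE2M cells. KLF10, a target of TGF-beta, fell in all (-1.04, -0.91 and -0.68) and was the 1 gene of the list called lower in siURM1 cells, while HES1, a target of Notch, fell in siNAE1 (-1.05) and siUBE2M cells (-0.47).

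The feedback inhibitors, phosphatases, RNA-binding proteins and others that shut the response off, numbered 23, all tested. In siNAE1 cells 12 were called higher and 4 lower (median 0.35), in siUBE2M cells 4 and 5 (median 0.07) and in siURM1 cells 14 and 4 (median 0.48). This made 69.6%, 39.1% and 78.3% called, beside 54.7%, 45.3% and 41.6% of all tested genes, so that the siUBE2M share was below that of all tested genes. DUSP5, named above for its likeness to FOS, had the highest value among the genes averaging 5 CPM or more in siNAE1 and siURM1 cells, while over the whole list the highest value in siURM1 cells was 3.43. NAB2, a corepressor bound by EGR1, was 1.13, -0.09 and 0.93 in siNAE1, siUBE2M and siURM1 cells, and for EGR1 too the siUBE2M value was the lowest. SPRY2, an inhibitor of receptor tyrosine kinase signalling, rose most in siURM1 cells (0.35, 0.37 and 1.14), and TNFAIP3, an inhibitor of NF-kB, rose in each (0.45, 0.66 and 0.78). DUSP16 (-1.08, -0.60 and -1.11) and DUSP8 (-0.73, -0.31 and -0.91), phosphatases of stress-activated kinases, fell in each knockdown, as did PPP1R15A, which reverses the integrated stress response (-0.69 in siNAE1, -0.48 in siUBE2M, and to 50.1% of control in siURM1 cells). DUSP1, a phosphatase of MAP kinases that is itself an immediate early gene, was called lower in siUBE2M (-0.58) and higher in siURM1 cells (0.48).

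Upstream factors and kinases switch the early genes on. Of 27 tested, 11 were called higher and 9 lower in siNAE1, 7 and 5 in siUBE2M, and 8 and 4 in siURM1 cells, with medians of -0.01, 0.08 and 0.09. The called genes made up 74.1%, 44.4% and 44.4% of the list, beside 54.7%, 45.3% and 41.6% of all tested genes. ELK3, an ETS partner of SRF, rose in siNAE1, siUBE2M and siURM1 cells (1.19, 0.56 and 0.99), as did its relative ELK4 (0.49, 0.44 and 0.87). RPS6KA1, a kinase downstream of ERK, was highest in siNAE1 cells (1.19), and MEF2C was called higher in siUBE2M cells (0.57). MEF2A, which acts on the JUN promoter, fell in each knockdown (-0.83, -0.59 and -0.73), as did ATF1, a relative of CREB (-0.90, -0.45 and -0.57), and CRTC1, a coactivator of CREB (-0.26, -0.66 and -0.33). The ligase genes for turnover of JUN protein were 10, of which 4 were called higher and 4 lower in siNAE1, 4 and 2 in siUBE2M, and 3 and 3 in siURM1 cells, with medians of -0.04, -0.01 and -0.07. Called were 80.0%, 60.0% and 60.0% of these genes, beside 54.7%, 45.3% and 41.6% of all tested genes. RBX1, the RING subunit of cullin ligases (0.77, 0.22 and 0.52), SKP1 (0.57, 0.37 and 0.58) and DDB1 (0.40, 0.37 and 0.16), which are adaptors, rose in each. CUL4A fell in each (-0.22, -0.32 and -0.43), whereas CUL1 (-0.28) and the ligase ITCH (-0.23) were called lower in siNAE1, CUL4B (-0.25) in siUBE2M and COP1 (-0.40) in siURM1 cells. The 1 DEG of the list, DET1, averaged less than 5 CPM and was lower in siNAE1 cells (-1.09, mean 4.57 CPM in control and 2.11 CPM in siNAE1 cells), and is named here after its value was seen. Of all tested genes, 8.61% were lower DEGs in siNAE1 cells, so 1 of 10 is near that share. These are RNA levels, and the JUN protein was not measured in these data.

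**Figure D4:**
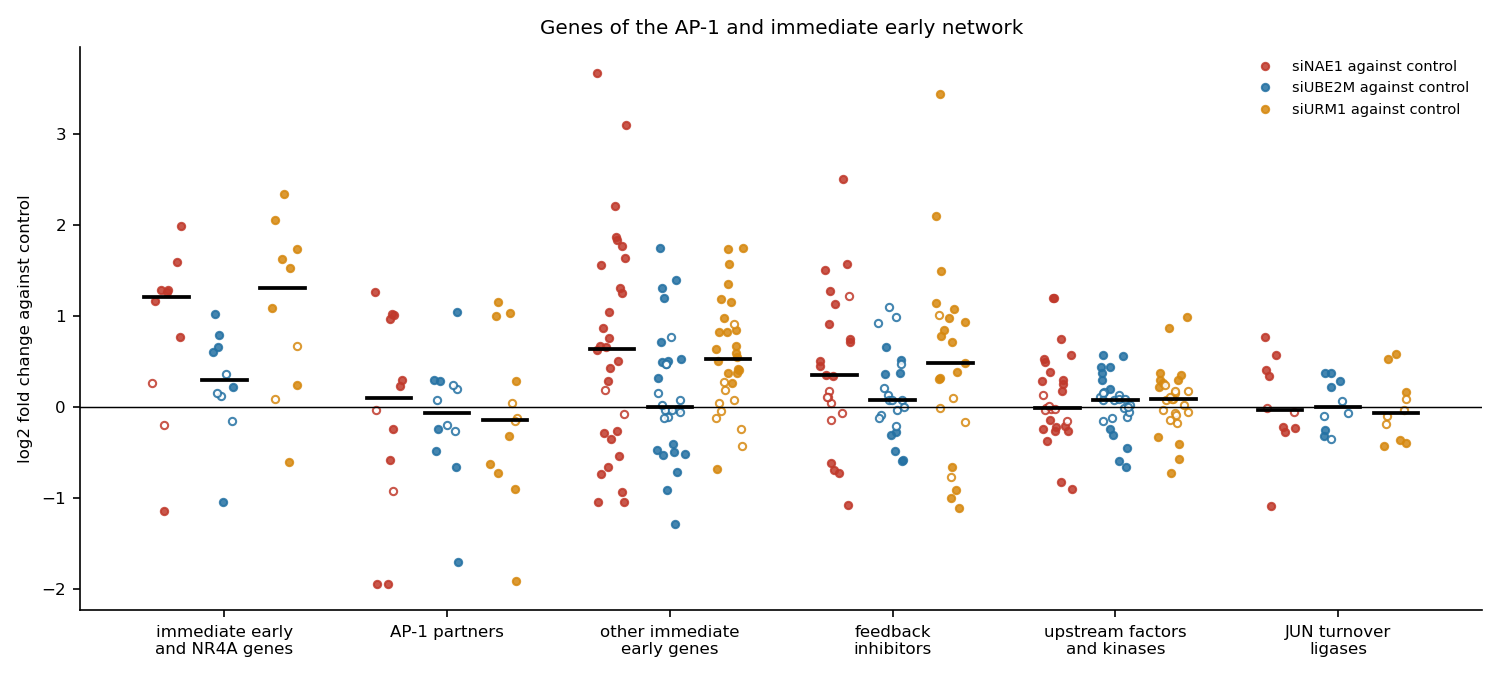
Log2 fold change against control (vertical axis) of every tested gene in the 10 immediate early and NR4A genes and 5 related lists (horizontal axis), in siNAE1 (red), siUBE2M (blue) and siURM1 cells (orange). Filled points passed the test, open points did not, and black bars are the medians, which for the other immediate early genes are 0.64, 0.00 and 0.52.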

How the data were processed

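Per the labels and the study's methods, the authors trimmed reads of 11 libraries with fastp, used HISAT2 (2.0.5) for alignment to GRCh38 and counted fragments per gene with featureCounts (1.5.0-p3), and they deposited the raw counts, whole and not normalized. FPKM was also deposited, derived by the authors from these counts with gene length. The annotation release and the strand setting of counting are not given in the sources used here. Counts that overlap a gene on the other strand may therefore include reads of that gene, and per-gene precision is set by total counts of 11733163 to 16321391 per library.

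The counts entered edgeR 4.0.16 (R 4.3.3): filterByExpr, TMM scaling, and a single quasi-likelihood fit of 4 groups with contrasts between every pair of groups and Benjamini-Hochberg adjustment over 18368 genes, called at an adjusted p under 0.05 and termed DEG where the log2 fold change was also at least 1 in size. Standard errors and 95% intervals are those of the fitted log2 fold changes. The procedure was also run on simulated counts with 200 changed genes, but the outcome is not given here and no result rests on it. Log2 CPM for likeness used a prior count of 2. Detected means over 3 counts in a library, and this floor covers counting error only. Promoters came from RefSeq (GRCh38.p14) and overlaps from GENCODE v44. Python 3.11.15 was used for tables (pandas 2.3.3) and figures (matplotlib 3.10.9).

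The 10 genes and the lists (AP-1 partners, other immediate early genes, feedback inhibitors, upstream factors and kinases, JUN turnover ligases, siRNA targets, markers) were chosen with earlier results of these data known. Genes named were the 10 genes, the siRNA targets, the 2 highest and 2 lowest called genes of each list in each knockdown that averaged 5 CPM or more, and, for the gene of the 10 with the largest change in each knockdown (mean at least 1 CPM), the 3 genes of most similar pattern. In the deposited table, 2 listed genes stand under older symbols. Alternatives were RLE size factors, no filter or at least 10 counts in every library, DESeq2 1.42.0, 2 groups per fit, the replicate number as a block, limma 3.58.1 on log2(FPKM + 1) or log2(FPKM + 0.1) for genes with a mean FPKM of at least 0.1, and leaving out each library.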

Additional observations from a re-analysis of the deposited data

How the results depend on the processing

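No alternative reversed a call among the 10 genes; for the other lists only counts were compared. Of the tests of the 10 genes under all alternatives, 139 of 140 kept their side of the threshold for siNAE1 against control, 134 of 140 for siUBE2M against control, 124 of 130 for siURM1 against control, 136 of 140 for siNAE1 against siUBE2M, 109 of 130 for siNAE1 against siURM1 and 130 of 130 for siUBE2M against siURM1. The cause of the changes given here was not tested, except that log2(FPKM + 1) compresses the changes of genes with low FPKM by its construction.

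With limma on log2(FPKM + 1), the DEGs in siNAE1 cells were 4 of the 10 genes (7 by edgeR), 2 AP-1 partners (5), 7 other immediate early genes (13), 2 feedback inhibitors (6), 1 upstream factor (2) and 0 JUN turnover ligases (1, DET1, named after its value was seen). In siUBE2M cells they were 1 of the 10 genes (2), 1 AP-1 partner (2) and 1 other immediate early gene (5), and in siURM1 cells 1 AP-1 partner (3), 2 other immediate early genes (6) and 3 feedback inhibitors (6). With a pseudocount of 0.1 they were 1 of the 10 genes, 1 AP-1 partner and 3 other immediate early genes in siUBE2M cells, 1 AP-1 partner in siURM1 cells and 0 JUN turnover ligases in siNAE1 cells. With at least 10 counts in every library, fewer genes could be tested, and 3 AP-1 partners were DEGs in siNAE1 and 3 other immediate early genes in siUBE2M cells. Between siNAE1 and siURM1 cells, 3 of the 10 genes were called with no filter, with DESeq2 and with limma at either pseudocount (5 by edgeR). In siURM1 cells against control, 4 to 6 of the 10 genes were DEGs over the alternatives other than leaving out a library (6 by edgeR). Smaller changes in the other counts are not listed here.

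Leaving out each library gave 3 to 4 of the 10 genes called between siNAE1 and siURM1 cells, and as DEGs against control 1 to 2 of the 10 genes in siUBE2M cells, 3 to 6, 1 to 2 and 1 to 3 AP-1 partners in siNAE1, siUBE2M and siURM1 cells, 0 to 1 feedback inhibitors in siUBE2M, 0 to 1 upstream factors in siURM1 and 0 to 1 JUN turnover ligases in siNAE1 cells. Without 1 siURM1 library the other is assumed to vary like the libraries of the other groups.

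Replicate numbers did not pair the libraries: over 15 pairs with the same number, deviations from group means correlated with r from -0.0657 to 0.0787, and 3 of the 11 libraries correlated best with their own number. With the replicate block, 8, 6 and 8 of the 10 genes were called in siNAE1, siUBE2M and siURM1 cells, as without it, and 2 of the 60 tests changed side, both between siNAE1 and siURM1 cells (EGR1 -0.22, adjusted p = 0.097; IER3 -0.53, adjusted p = 0.039; edgeR with Benjamini-Hochberg adjustment). Over all alternatives these adjusted p values spanned 0.017 to 0.18 for EGR1 and 0.039 to 0.45 for IER3 (edgeR, DESeq2 or limma with Benjamini-Hochberg adjustment). At 26 to 171 counts per library, FOSB, NR4A2, NR4A3 and IER3 have the widest intervals of the 10 genes.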
